A study of Saccharomyces cerevisiae with 4 samples.

Results

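The glyoxylate cycle and gluconeogenesis enzymes of budding yeast that act outside mitochondria were examined through 8 genes, ICL1, MLS1, CIT2, MDH2, MDH3, IDP2, PCK1 and FBP1, chosen by name for the role of their products. All 8 were found on the arrays, each with 1 probe printed as 2 spots, and all 8 were among the 6144 genes tested. Signals of every member were well above background on each of the 4 arrays, and none of their spots carried an outlier flag.

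The glyoxylate cycle lets yeast build sugars and amino acids from acetate or ethanol. Isocitrate lyase (Icl1) splits isocitrate into succinate and glyoxylate, malate synthase (Mls1) joins glyoxylate to acetyl-CoA, malate dehydrogenases (Mdh2 in the cytosol, Mdh3 in peroxisomes) oxidise the malate, and citrate synthase (Cit2 in peroxisomes) closes the cycle. Phosphoenolpyruvate carboxykinase (Pck1) and fructose-1,6-bisphosphatase (Fbp1) then carry carbon up to glucose, while the isocitrate dehydrogenase Idp2 makes NADPH in the cytosol. In cells on glucose most of these genes are strongly repressed, and the enzymes Fbp1, Pck1, Icl1 and Mdh2 are marked for destruction by the Gid ubiquitin ligase. CIT2 is expressed on glucose and stands apart in its control by the retrograde pathway, which reports on the state of mitochondria.

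Total RNA came from a Saccharomyces cerevisiae strain labelled BY4741 in which estradiol switches on Msn2A6, a form of the stress transcription factor Msn2. The group at 0 min held 2 arrays of untreated cultures, and the group at 90 min held 2 arrays of cultures given 6 nM 17β-estradiol for 90 min. All grew in rich glucose medium (YPD) at 30 °C, in cultures of 50 ml, and both groups carried the same inducible gene. The series calls the arrays of a group biological replicates. The promoter driving Msn2A6 is unnamed in the labels used here, and the protocols place the estradiol addition at an optical density of 0.5 in one text and about 1 in another. A culture left without estradiol for 90 min was not among the samples, so the hormone, the induced factor and later growth cannot be told apart. The probe for MSN2, the induced gene, read 61.9 and 59.3 at 0 min and 331 and 262 at 90 min, a 5.55-fold rise (limma, adjusted p = 1.34e-06) in which an induced and any chromosomal copy cannot be told apart. HIS3, LEU2, MET17 and URA3, which the standard BY4741 genotype carries as deletions, gave signals well above background throughout, 4 genes of 4. They read 14990 to 276400 units, so the probes did not bear out that genotype. The 4 genes specific to mating type a met the same criterion on every array, and so did 3 genes specific to mating type alpha. That criterion thus did not separate the mating types, but the signals lay apart, at 1467 to 9913 units for the a genes and 17.8 to 108 for the alpha genes.

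Signals below are log2 values after subtracting the 75th percentile of the same array, so a value describes 1 gene across arrays and is not compared between genes. Changes are 90 min minus 0 min on that scale, with SE from limma and p adjusted over all probes. Because the 2 samples of a group are all that was hybridised, p-values measure only the spread between these cultures, and in bulk RNA fewer expressing cells and less RNA per cell cannot be told apart. The median gene changed by -0.13. Left unscaled it changed by -0.32, and on the scale of the spike-in controls by -0.58.

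IDP2, ICL1, MDH2, FBP1 and PCK1 rose, CIT2 fell, and MLS1 and MDH3 did not pass. That is 5 risen and 1 fallen of 8, where 76.5% of all genes were called, 30.3% risen and 46.2% fallen. Most changes were small. IDP2 alone rose at least 2-fold, as 8.92% of all genes did, and no member fell that far, as 3.87% did. The groups did not overlap for 7 members (88.4% of all genes), with 90 min higher for 6 (35.6%) and lower for CIT2 (52.9%), while those of MLS1 overlapped. The median change of the 8 was 0.36, against 0.17 unscaled, 0.21 in the deposited value table and -0.09 on the spike-in scale, where the direction turned.

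**Figure D1:**
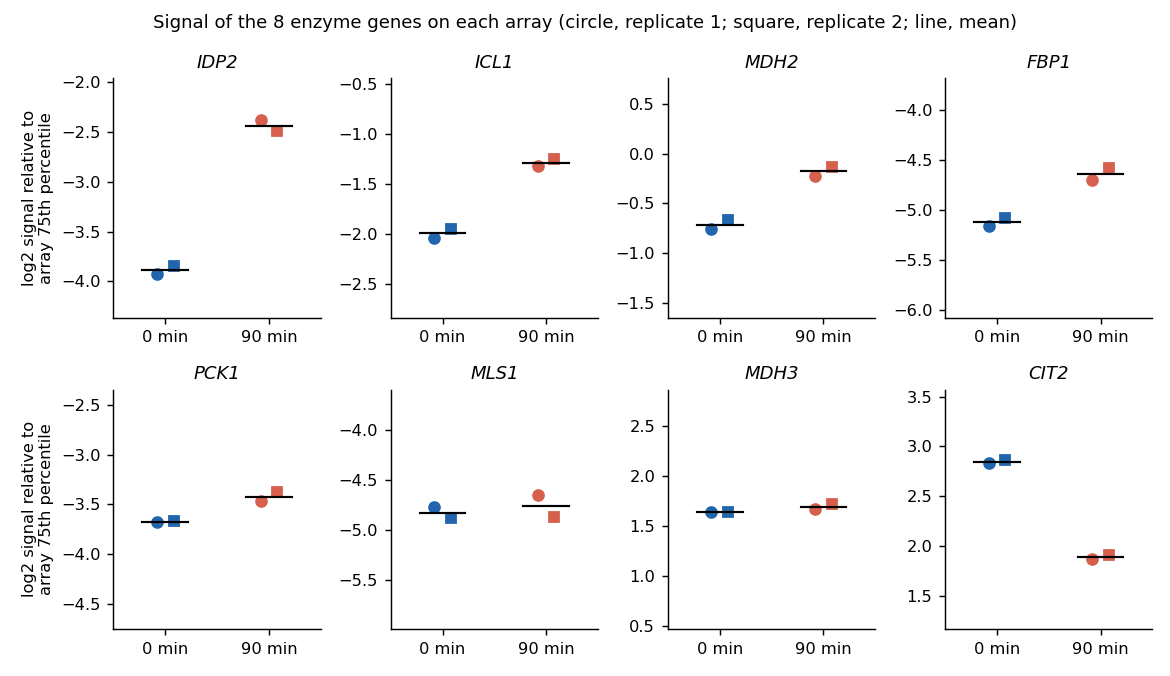
Log2 signal relative to the 75th percentile of the array (y axis, 2.4 log2 units in every panel, with its own origin) at 0 min (blue) and 90 min (red) for each of the 8 genes. Circles are replicate 1, squares replicate 2 and lines group means; IDP2 moved from -3.89 to -2.43 and CIT2 from 2.84 to 1.89, whereas the arrays of MLS1 overlapped.

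The entry step of the glyoxylate cycle was higher at 90 min and the step after it was not. ICL1 (YER065C), the isocitrate lyase gene, had signals of -2.04 and -1.95 at 0 min against -1.32 and -1.25 at 90 min. Both treated arrays were thus well clear of the untreated ones. The rise was 0.71 ± 0.06 (SE), or 1.63-fold (limma, adjusted p = 8.39e-05), and it was larger than the change of 86.7% of the genes tested. Spike-in scaling reduced it to 0.25, which did not pass (adjusted p = 0.215). MLS1 (YNL117W), the malate synthase gene, gave -4.77 and -4.88 at 0 min and -4.65 and -4.87 at 90 min. Replicate 2 at 90 min lay within the untreated range, and its spots read 269 and 284, below the spots of the other 3 arrays (329 to 350). The change of MLS1 was 0.07 ± 0.09 (95% interval -0.15 to 0.28, adjusted p = 0.519). This value turned with the array left out, to -0.05 without replicate 1 at 90 min against 0.18 without replicate 2. In the deposited value table MLS1 fell by 0.21 (adjusted p = 0.0193), and under quantile normalization its change was -0.18 (adjusted p = 0.1). The MLS1 signal was 12.9 to 18 times the local background, among the dimmer of the 8.

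Relatives of these enzymes in other pathways changed in their own ways. DAL7 (YIR031C), the malate synthase gene of allantoin breakdown, had signals of -1.59 and -1.62 at 0 min and -2.25 and -2.27 at 90 min. It fell by 0.66 ± 0.05 (adjusted p = 6.02e-05). MLS1 and DAL7 are closely related in sequence, and whether either probe binds the transcript of the other was not tested. ICL2 (YPR006C), which encodes the mitochondrial methylisocitrate lyase, rose by 0.35 ± 0.06 (adjusted p = 0.00205), with arrays at -0.89 and -0.80 before and -0.52 and -0.46 after. Left unscaled, its change was 0.16 (adjusted p = 0.148), and on the spike-in scale -0.10 (adjusted p = 0.625).

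CIT2 was the member that fell. CIT2 (YCR005C), the peroxisomal citrate synthase gene, had signals of 2.83 and 2.86 at 0 min and 1.87 and 1.91 at 90 min, with spots of 66020 to 72590 units before and 28870 to 32090 after. The replicates were close and the groups far apart. Its change was -0.95 ± 0.06, a 1.94-fold fall (limma, adjusted p = 1.17e-05), and 4.56% of genes had a lower value. The fall passed under all 16 alternative settings, between -1.41 and -0.91. CIT1 (YNR001C), the mitochondrial citrate synthase gene of the tricarboxylic acid cycle, read 2.97, 2.93, 2.99 and 3.00 in the same order, with a change of 0.04 ± 0.05 (adjusted p = 0.488). CIT3 (YPR001W), the minor mitochondrial synthase gene, rose by 0.16 ± 0.06 (adjusted p = 0.0387), but was lower by 0.29 on the spike-in scale, a change of -0.29 that did not pass.

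CIT2 is the best known target of the retrograde pathway, in which Rtg2 senses the signal and Rtg1 and Rtg3 bind DNA. Of 9 regulators and other targets of that pathway, 4 fell (DLD3, RTG3, ACO1 and RTG2) and 5 did not pass, with a median of -0.05 against -0.13 over all genes. The 44.4% that fell was close to the 46.2% of all genes. With spike-in scaling 8 of the 9 fell, where 62.7% of all genes did. With scaling on the median 2 fell, where 42.5% of all genes did. Besides CIT2, DLD3, a cytosolic lactate dehydrogenase gene often used as a readout of the pathway, fell by 0.71 ± 0.08 (adjusted p = 0.000222), from 3.83 and 3.67 to 3.11 and 2.98. RTG3 fell by 0.41 ± 0.07 (adjusted p = 0.00164) and RTG2 by 0.19 ± 0.06 (adjusted p = 0.0215). ACO1, the aconitase gene, fell by 0.20 ± 0.07 (adjusted p = 0.0422). IDH1, IDH2 and PYC1, which also belong to this list, had changes of 0.02, 0.03 and 0.02 and did not pass. RTG1 had a change of 0.41 ± 0.18, and its replicates at 90 min stood apart, at -4.62 and -5.23. The other member of the list, MKS1, a negative regulator, had a change of -0.05 (adjusted p = 0.433).

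The malate dehydrogenase genes, each for a different compartment, changed unequally. MDH2 (YOL126C), for the cytosolic enzyme of gluconeogenesis, gave -0.76 and -0.67 at 0 min and -0.22 and -0.13 at 90 min. Its groups did not overlap, and the rise was 0.53 ± 0.06, or 1.45-fold (limma, adjusted p = 0.000339). On the spike-in scale it was 0.0814 and did not pass (adjusted p = 0.703). MDH3 (YDL078C), for the peroxisomal enzyme that reoxidises NADH during fatty acid breakdown, gave 1.64 and 1.64 at 0 min and 1.67 and 1.72 at 90 min. The treated arrays were higher by a margin of 0.05 ± 0.06 (95% interval -0.08 to 0.18, adjusted p = 0.418). Before scaling, the MDH3 signals ran the other way, from 29800 and 30250 units to 27840 and 26590, a change of -0.14 when left unscaled (adjusted p = 0.186). On the spike-in scale it was -0.40 (adjusted p = 0.0457). MDH1 (YKL085W), the mitochondrial isozyme gene, rose from 2.44 and 2.38 to 3.26 and 3.26, by 0.85 ± 0.06 (adjusted p = 2.13e-05).

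A ratio of 2 genes within an array does not depend on a constant offset between arrays, so isozymes were compared in that form over 7 pairs. With 2 arrays against 2, the two-sided exact permutation test cannot go below p = 0.333, and each of the 7 pairs reached that value (0.333 after adjustment over the pairs). None can therefore pass, and the sizes are given with their spread. The MDH2 to MDH3 ratio was higher at 90 min by 0.48 on the log2 scale, with gaps between single arrays of 0.41 to 0.55. Against MDH1, the ratio of MDH3 changed by -0.80 (-0.85 to -0.75) and that of MDH2 by -0.32 (-0.44 to -0.20). Cytosolic MDH2 thus gained on the peroxisomal isozyme gene and lost against the mitochondrial one on every array. The CIT2 to CIT1 ratio changed by -0.998 (-1.04 to -0.95), and the CIT2 to CIT3 ratio by -1.11 (-1.17 to -1.06).

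**Figure D2:**
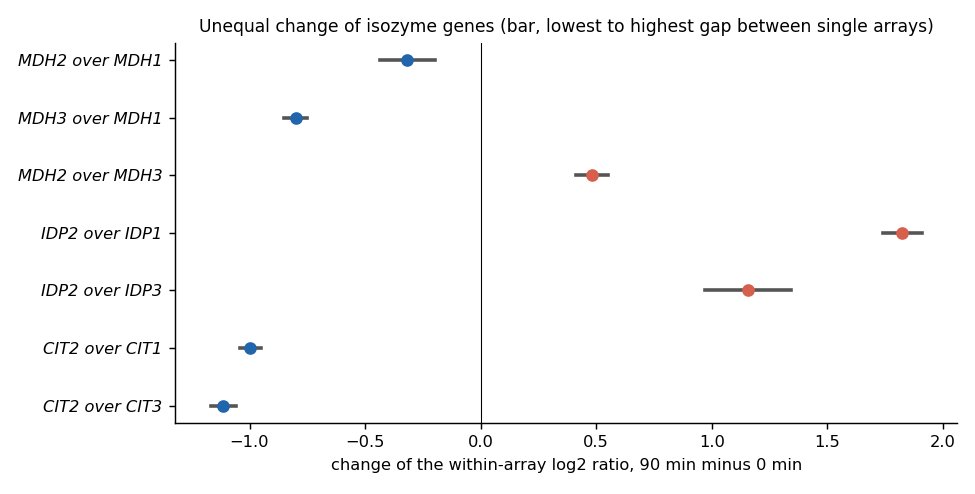
Change of the within-array log2 ratio of isozyme genes between 0 and 90 min (x axis, log2 units) for 7 pairs (y axis). Points are the difference of group means, red above 0 and blue below, and bars run from the lowest to the highest gap between single arrays; no bar reaches 0, and the IDP2 to IDP1 ratio moved most, by 1.82.

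IDP2 changed most of the 8. IDP2 (YLR174W), the gene of the cytosolic NADP-dependent isocitrate dehydrogenase, had signals of -3.93 and -3.85 at 0 min and -2.38 and -2.49 at 90 min, or 624 and 674 units against 1678 and 1439. The lowest treated array was above the highest untreated one by more than the replicate gaps. The rise was 1.46 ± 0.07, or 2.74-fold (limma, adjusted p = 4.01e-06), above that of 95% of genes tested. It passed under all 16 alternative settings, between 1.00 and 1.51. IDP1 (YDL066W), the mitochondrial isozyme gene, fell from 1.84 and 1.87 to 1.48 and 1.49, by 0.37 ± 0.05 (adjusted p = 0.0009). IDP3 (YNL009W), the peroxisomal isozyme gene, rose by 0.30 ± 0.07 (adjusted p = 0.00583). Its call was lost in the deposited value table (0.0317, adjusted p = 0.64), when left unscaled (0.11, adjusted p = 0.333) and on the spike-in scale (-0.15, adjusted p = 0.459). Within arrays, the ratio of IDP2 to IDP1 changed by 1.82 (gaps of 1.74 to 1.91) and that of IDP2 to IDP3 by 1.16 (0.97 to 1.34).

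IDP2 shares the supply of cytosolic NADPH with the pentose phosphate pathway and Ald6. Of 6 genes of those routes, 2 rose and 3 fell, with a median of -0.27. These shares, 33.3% and 50%, were close to those of all genes (30.3% and 46.2%). GND2 and SOL4, minor isozyme genes of the pentose phosphate pathway, rose by 4.92 ± 0.09 and 2.06 ± 0.06. GND1, the major phosphogluconate dehydrogenase gene, fell by 1.39 ± 0.07, and ALD6, the cytosolic aldehyde dehydrogenase gene, fell by 1.19 ± 0.06. SOL3 fell by 0.65 ± 0.06, and ZWF1, which encodes the first enzyme of the pathway, had a change of 0.10 ± 0.07 and did not pass.

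The genes of both enzymes particular to gluconeogenesis rose by small amounts. PCK1 (YKR097W), the phosphoenolpyruvate carboxykinase gene, had signals of -3.68 and -3.67 at 0 min and -3.47 and -3.38 at 90 min. The groups did not overlap, and the rise was 0.25 ± 0.06, or 1.19-fold (limma, adjusted p = 0.00714; 95% interval 0.11 to 0.39). Duplicate spots of this probe differed on every array by 0.15 to 0.20, so the rise was close in size to the gap between spots of 1 array. In units, PCK1 read 743 and 765 before and 792 and 778 after. Left unscaled, its change was 0.06 (adjusted p = 0.592), and on the spike-in scale -0.20 (adjusted p = 0.33).

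FBP1 (YLR377C), the fructose-1,6-bisphosphatase gene, gave -5.16 and -5.08 at 0 min and -4.70 and -4.58 at 90 min. All treated values were above the untreated ones, at 336 and 337 units against 267 and 286. Its rise was 0.48 ± 0.07, or 1.39-fold (limma, adjusted p = 0.000657). The FBP1 signal was only 15.3 to 17.4 times the local background, and the size of the rise depended on the scaling, at 0.21 under quantile normalization, 0.18 in the deposited value table and 0.02 on the spike-in scale, which did not pass (adjusted p = 0.917).

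Enzymes that run against Pck1 and Fbp1, or set their direction, were followed through 9 genes. Of these 5 fell (55.6%) and 3 rose (33.3%), close to the 46.2% and 30.3% of all genes, with a median of -0.22. PFK1 and PFK2, for the subunits of phosphofructokinase, which opposes Fbp1, fell by 0.75 ± 0.05 and 0.85 ± 0.06. On every array PFK1 and PFK2 were lower at 90 min, PFK1 at 3.52 and 3.50 against 2.77 and 2.74. PFK27 and PFK26 make fructose-2,6-bisphosphate, which activates phosphofructokinase and inhibits Fbp1, and FBP26 breaks it down. PFK27 fell by 1.15 ± 0.08, whereas PFK26 rose by 0.46 ± 0.06 and FBP26 by 0.50 ± 0.06. On the spike-in scale PFK26 and FBP26 did not pass (adjusted p = 0.984 and 0.84). CDC19, the main pyruvate kinase gene on glucose, fell by 0.22 ± 0.07 (adjusted p = 0.0257), and PYK2, a pyruvate kinase gene of glucose-poor growth, rose by 0.67 ± 0.05. The change of PYK2 on the spike-in scale was 0.22, which did not pass (adjusted p = 0.283). Pyruvate carboxylase, which supplies Pck1 with oxaloacetate, is encoded by PYC1 (0.02 ± 0.06, not passed) and PYC2, which fell by 0.42 ± 0.06.

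Enzymes used in both directions, between glucose 6-phosphate and phosphoenolpyruvate, are encoded by 10 genes of the list. Of these 8 fell (46.2% of all genes did) and none rose, with a median of -0.56. ENO1 fell by 1.67 ± 0.07, TDH2 by 1.06 ± 0.07, PGI1 by 0.80 ± 0.06 and TPI1 by 0.62 ± 0.06. FBA1 and TDH1 did not pass. The enolase genes resemble each other closely, as do the TDH genes, so single values among them are uncertain.

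Ordered by change, the members ran IDP2, ICL1, MDH2, FBP1, PCK1, MLS1, MDH3 and CIT2. Neighbours were compared by their within-array ratio, for which the smallest exact p is again 0.333. IDP2 exceeded ICL1 by 0.75 (gaps between single arrays of 0.65 to 0.85), and MDH3 exceeded CIT2 by 1.01 (0.98 to 1.03). ICL1 exceeded MDH2 by 0.17, and single-array gaps were within 0.16 to 0.18. MDH2 and FBP1 were 0.06 apart (0.04 to 0.08), less than the SE of either change. FBP1 exceeded PCK1 by 0.22 (0.18 to 0.27). PCK1 and MLS1 (0.19, gaps of -0.03 to 0.41) and MLS1 and MDH3 (0.01, gaps of -0.17 to 0.20) did not differ beyond their spread, and their ratios overlapped between groups. Under quantile normalization and in the deposited value table the change of FBP1 was below that of PCK1, and that of MLS1 below that of MDH3.

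Genes that feed acetyl units into the cycle, or move its products, included several with large changes in either direction. Of 13 genes of acetate and C2 supply 8 rose (61.5%), 6 of them at least 2-fold, and 4 fell (30.8%). Over all genes 30.3% rose, 8.92% rose at least 2-fold, and 46.2% fell. The median of the list was 0.87 against 0.36 for the members. CAT2, the carnitine acetyltransferase gene, rose by 3.86 ± 0.07. ALD4, which makes acetate in mitochondria, rose by 2.10 ± 0.06, and ADH2, which oxidises ethanol, by 2.02 ± 0.06. CTP1, the mitochondrial citrate carrier gene, fell by 2.28 ± 0.06. Outside the rule for named genes and after their values were seen, ACS1 and SFC1 were picked because they are regulated with ICL1 by Cat8. ACS1, for the acetyl-CoA synthetase of acetate growth, rose by 1.71 ± 0.08, from -3.74 and -3.91 to -2.06 and -2.16. SFC1, for the succinate and fumarate carrier that brings the succinate made by Icl1 into mitochondria, rose by 1.69 ± 0.06. Both changes were larger than that of ICL1, a difference that was not tested. Other genes of the list, also named after their values were seen, varied. JEN1 (0.87 ± 0.06) and the 6 genes risen at least 2-fold exceeded ICL1, whereas YAT1 (0.46 ± 0.06) did not. ADY2 had a change of 0.05 ± 0.08 and did not pass, and that of ACS2 was -1.498 ± 0.06. ACS1 and SFC1 thus do not stand for the genes that Cat8 regulates, which were not tested as a set.

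**Figure D3:**
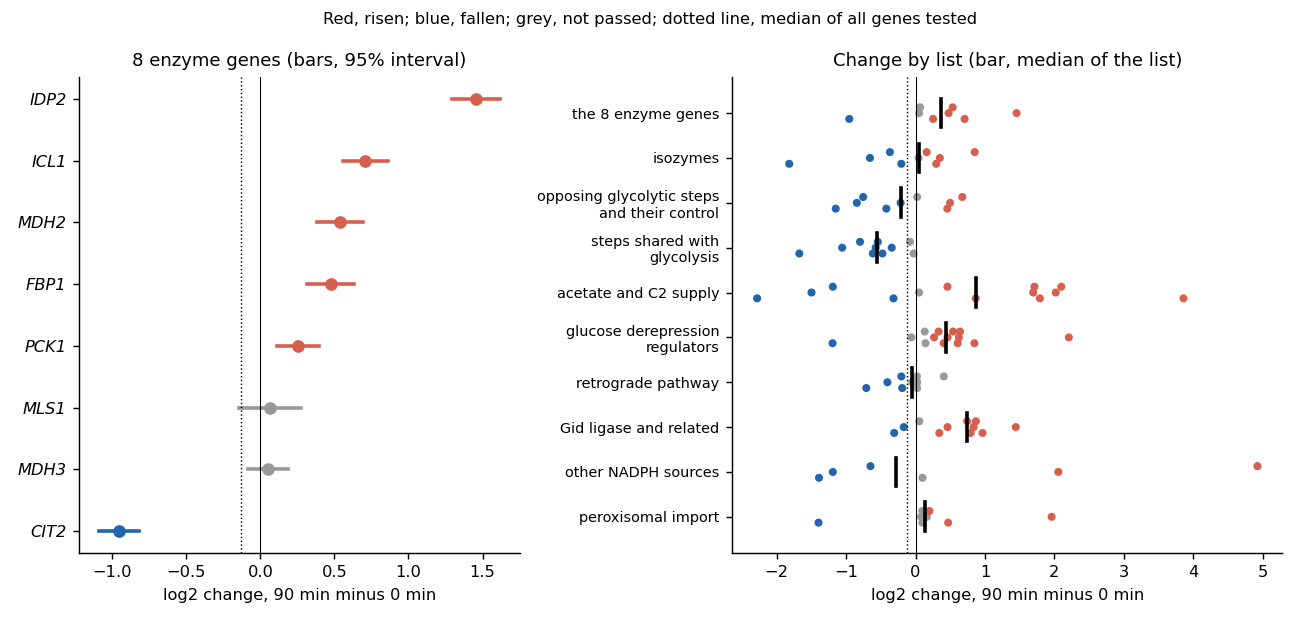
Left, log2 change from 0 to 90 min (x axis) of the 8 enzyme genes with 95% intervals; right, the change of each gene in the lists around them, with the median of the list as a bar. Red genes rose, blue fell, grey did not pass, and the dotted line is the median of all genes at -0.13; the members span -0.95 to 1.46, and the genes of acetate and C2 supply span -2.28 to 3.86.

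Regulators that lift or hold glucose repression of these genes were mostly higher on the main scale. Of 14, 10 rose (71.4%) and MIG2 fell (7.14%), against 30.3% and 46.2% of all genes, with a median of 0.43. With spike-in scaling 2 rose and 2 fell, where 11.1% of all genes rose and 62.7% fell. The median of the list was then -0.02. REG1, which directs a phosphatase against the Snf1 kinase, rose by 2.21 ± 0.06, from 0.32 and 0.23 to 2.45 and 2.51. MIG2, a glucose repressor, fell by 1.195 ± 0.07, while RDS2, an activator of PCK1 and FBP1, rose by 0.85 ± 0.05 and SIP2, a subunit of the Snf1 complex, by 0.64 ± 0.06. CAT8 and SIP4 encode activators that bind the promoters of ICL1, MLS1, PCK1 and FBP1. They, ERT1 and ADR1 were named after their values were seen. CAT8 rose by 0.33 ± 0.06 and SIP4 by 0.61 ± 0.06, with changes of -0.12 and 0.15 under spike-in scaling, where neither passed. ERT1, another transcription factor gene of the list, had a change of 0.13 ± 0.05 and did not pass (limma, adjusted p = 0.064). ADR1, which acts on ADH2 and peroxisomal genes, rose by 0.62 ± 0.06, a change of 0.17 with spike-in scaling.

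The Gid ligase, which removes Fbp1, Pck1, Icl1 and Mdh2 when glucose returns, was followed through 11 genes of the ligase and related to it. Of these 8 rose and 2 fell, with a median of 0.74. These shares were 72.7% and 18.2%, against 30.3% and 46.2% of all genes. VID24, also called GID4, the subunit that recognises the substrates, rose by 1.44 ± 0.08, from -1.94 and -2.14 to -0.64 and -0.56. Another substrate receptor gene, GID10, rose by 0.97 ± 0.07, or 0.66 after normexp background correction. GID7 rose by 0.87 ± 0.07 and FYV10 by 0.84 ± 0.06. VID22 and UBP14 fell, and RMD5 did not pass. With spike-in scaling 3 of the 11 rose, where 11.1% of all genes did. Protein was not measured.

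Import into peroxisomes, where Cit2 and Mdh3 act, was followed through 8 genes. Of these 3 rose (37.5%, near the 30.3% of all genes) and 1 fell (12.5%, against 46.2% of all genes). Their median was 0.13, and -0.32 on the spike-in scale. PEX5, the receptor for the terminal signal that these enzymes carry, had a change of 0.10 ± 0.06 and did not pass. PEX18 rose by 1.96 ± 0.07 and its relative PEX21 fell by 1.40 ± 0.06; both assist Pex7, the other import receptor. PEX8 rose by 0.47 ± 0.05 and PEX14 by 0.20 ± 0.07, and those calls were lost with spike-in scaling. PEX7, PEX13 and PEX17 did not pass either, with changes of 0.08 to 0.16.

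How firmly a member can be said to have risen depended on the reference for the arrays. The 75th percentile signal was 9528 and 9694 units at 0 min and 8731 and 8084 at 90 min, while the spike-in controls read 6811 and 8547 at 0 min and 9251 and 9016 at 90 min. Scaling on the controls lowered every change by 0.45. Relative to the 75th percentile of their array, the controls differed by 0.30 on the log2 scale between the 0 min arrays. On the spike-in scale the SE was 0.19 for each member, against 0.06 to 0.09 on the main scale. A change of the same size could therefore pass on the main scale and not on the spike-in scale. Of all calls, 39.6% were rises on the main scale, 26.7% without scaling and 15% on the spike-in scale. Among the members, the split of 5 risen and 1 fallen became 4 and 1 without scaling and 1 and 2 on the spike-in scale, where IDP2 rose by 1.00 and CIT2 and MDH3 fell by 1.41 and 0.40. IDP2 and CIT2 were the 2 members that passed in the same direction under all 16 alternative settings.

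**Figure D4:**
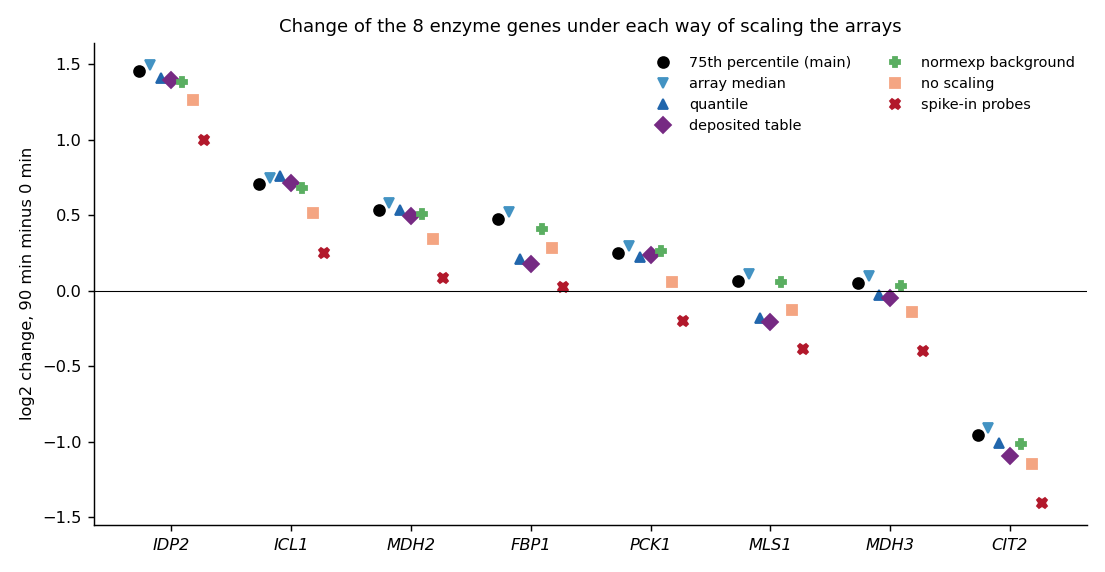
Log2 change from 0 to 90 min (y axis) of the 8 enzyme genes (x axis) under 7 ways of treating the values, 1 symbol each. IDP2 stayed between 1.002 and 1.499 and CIT2 between -1.41 and -0.91 over these settings, whereas MLS1, MDH3 and PCK1 lay on both sides of 0.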

How the data were processed

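RNA was measured on 4 Agilent yeast arrays in 1 colour, all on 1 slide and from 1 scanning session. The deposited scanner files hold spot intensity extracted with Agilent Feature Extraction 10.7.3.1, per the file headers, as the processed signal that software gives for each array by itself. The deposited value table holds log2 values; the submitters' processing notes name limma, with no version or steps. On its 6256 probes the column medians were 11.66 to 11.68, and it correlated with log2 median signal of the same array at r = 0.99957 to 0.99983; whether background was subtracted is unknown.

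The 75th percentile over yeast spots was subtracted from log2 processed signal, and spots of a probe were averaged without flagged ones (3 to 10 per array). Testing required a signal well above background in both samples of either group, which 6175 of 6256 probes met. The 6256 probes were named by locus tag (5748), accession (17) or the name in the file (491). The brightest tested probe stood for each gene. The test was limma, version 3.58.1, under R 4.3.3 (lmFit, eBayes, two-sided, Benjamini-Hochberg over probes, adjusted p under 0.05). The array design was built on an older assembly than the gene table, so no positions are given. With 2 arrays per group, their number limits the precision. In simulated data for this comparison (6144 genes), 40% of genes shifted by 0.25 and 100% of those shifted by 0.5 were recovered, and 0.32% of unchanged genes were called. That simulation left 5944 genes unchanged and used independent noise without offsets between arrays. In the data 76.5% of genes were called, so the simulated rates cannot be taken as those of the reported calls.

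The members and lists were chosen with earlier results of these data known. All members, isozymes and opposing steps were named, except 1 gene that is not reported here, and from each other list up to 4 called genes with the largest absolute change; others were named after their values were seen, to complete a count or where stated. Alternatives were median, quantile, spike-in and no scaling, normexp with an offset of 50, the deposited value table, other filters, priors, thresholds and probe averaging, a replicate block, and leaving out each array. Figures were drawn with matplotlib 3.10.9 (Python 3.11.15).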

Additional observations from a re-analysis of the deposited data

How the results depend on the processing

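With spike-in scaling, 1 member rose and 2 fell, in place of 5 and 1, 16 genes of the pathway lists rose in place of 38, and 680 genes of the whole array in place of 1860. In that setting the change of ICL1 was 0.25, of MDH2 0.0814 and of FBP1 0.0226, none passing. That of PCK1 was -0.20, of MLS1 -0.39 and of MDH3 -0.40. The SE was then 0.19 for each member, against 0.06 to 0.09 in the main setting. With no scaling the change of PCK1 was 0.0584, not passing, of MLS1 -0.13 and of MDH3 -0.14. Both settings shift all genes of an array alike. Under quantile normalization MLS1 changed by -0.18 and MDH3 by -0.0308, and in the deposited value table by -0.21 and -0.0463; MLS1 passed there, so that 2 members (CIT2 and MLS1) fell. The cause of these moves was not tested. At a minimum of 2-fold, 1 member rose and 0 fell (limma, 1 fallen at adjusted p under 0.05), and 548 genes rose and 238 fell. Leaving out single arrays gave 5 risen and 1 fallen each time, with changes of MLS1 from -0.0458 to 0.18. Each array left out lowered the count of fallen genes in the list of Gid ligase and related genes. In most cases it lowered that of the retrograde genes too. The 7 isozyme ratios kept their direction under all 7 alternatives run on them, but most of these could not have turned them. Each gene had 1 probe, so probe averaging repeated the main values. Leaving out an array cannot turn a ratio whose groups do not overlap. Only normexp and the deposited value table could have changed a direction. Arrays with the same number deviated together at r = 0.203 over probes, but 2 numbers do not establish a pairing; the replicate block changed no call among the members (5 risen, 1 fallen) and gave 1952 genes risen and 2974 fallen in place of 1860 and 2840. The probes of MLS1 and FBP1 were dim, at 12.9 to 18 times background.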
